A study of Mus musculus with 13 samples.

Results

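The epithelial junction genes described here are 9 genes that hold lung epithelial cells together: the claudins Cldn1, Cldn3, Cldn7 and Cldn18, occludin (Ocln), zonula occludens 1 (Tjp1), the junctional adhesion molecule F11r, E-cadherin (Cdh1) and the adhesion molecule Epcam. They were chosen by symbol from the count table, which holds 32544 symbols, and all 9 were present and passed the filter on low counts, as did 12496 genes in all. The libraries came from whole lungs of wild type (WT) C57BL/6J male mice, bought at 7 weeks of age, that breathed 21% oxygen (normoxia, n = 7) or 80% oxygen (hyperoxia, n = 6) for 5 days before the lungs were perfused and frozen. Quant-seq, which reads the 3′ ends of polyadenylated transcripts, was used, and the value of a gene is given as CPM, its count as a share of the library's scaled total (TMM scaling). The labels call the libraries samples without naming the mouse behind each, and p-values therefore measure the spread between these samples, which may in part be technical.

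Epithelial cells are joined near their apical side by tight junctions, in which claudins and occludin form strands that set how freely ions and water pass between cells, and in which Tjp1 ties the strands to actin. Below them lie adherens junctions, built on E-cadherin and its catenins, and desmosomes, which anchor keratin filaments. In the lung, Cldn18 is the typical claudin of the alveolar epithelium, Cldn3 is known from alveolar type 2 and airway cells, and Epcam marks epithelial cells in general, whereas F11r and Tjp1 are also found in endothelium.

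In hyperoxia, 1 of the 9 genes passed the test, against a background of 22.6% of all genes tested. Cldn1, a claudin that seals the paracellular space, was lower, and 0 genes were higher by edgeR's quasi-likelihood test at an adjusted p of 0.05, where 11.8% of all genes were higher and 10.8% lower. The median log2 fold change of the 9 genes was -0.12 and that of all genes tested was -0.03. Without the adjustment, 1 gene was higher (F11r) and 1 lower (Cldn1) at a p under 0.05, and DESeq2 and limma-voom each called 1 higher and 1 lower. The groups overlapped for all 9, whereas they did not overlap for 10.8% of all genes tested.

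The total count per library ran from 1607111 to 4540288, and a count of 3, taken as the floor, was worth between 0.656 and 1.84 CPM. The library labelled Hyperoxia 1 stood apart from the rest, with a Pearson r of 0.721 to 0.833 to the other libraries across genes, while the other 12 had an r of 0.854 to 0.967 among themselves. Hyperoxia 1 was the highest hyperoxic library for Cldn18, F11r and Cdh1 and the lowest for Cldn3 and Cldn7. Calls of named genes that turned on this library are given with and without it. The library names carry letters, of which B to M hold 5 normoxic and 3 hyperoxic libraries and O to S hold 2 and 3, and the labels do not say what the letters mark.

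**Figure D1:**
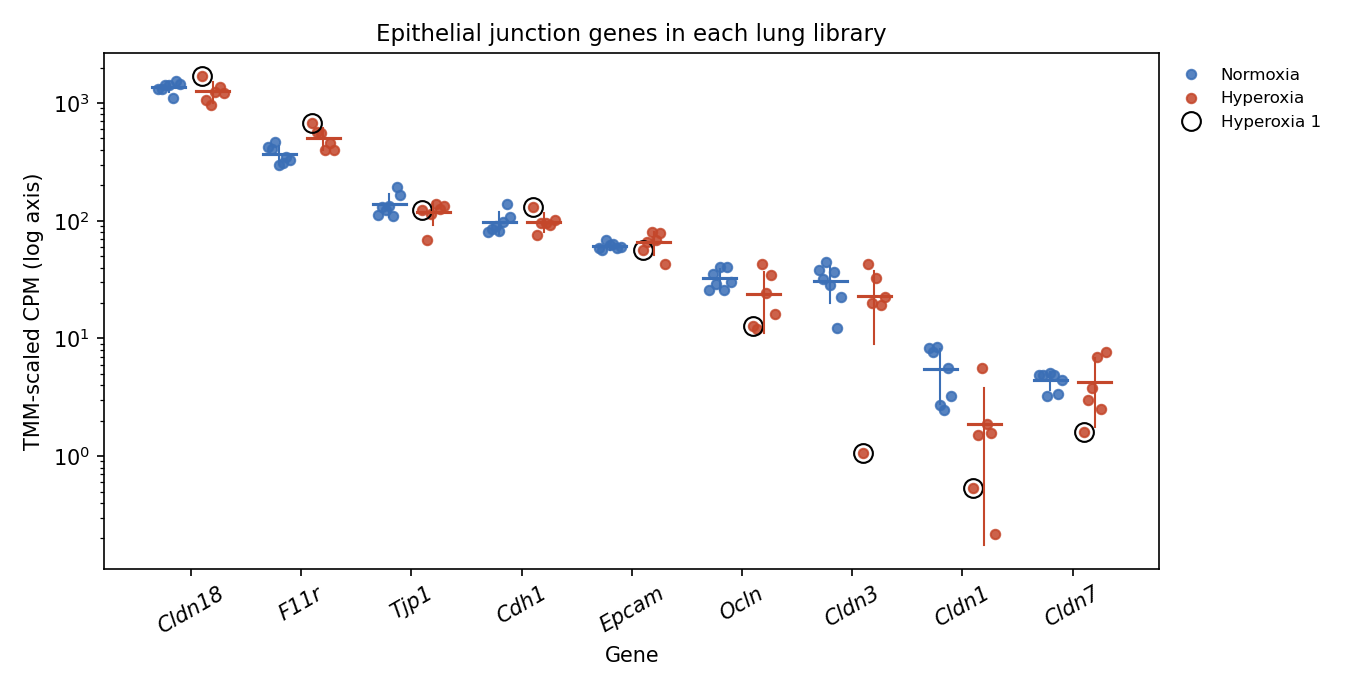
TMM-scaled CPM (log axis) of each epithelial junction gene in the 7 normoxic and 6 hyperoxic libraries, 1 point per library, with the group mean as a bar and the SD as a line (cut short at the bottom for Cldn1 in hyperoxia, where the mean minus the SD is below 0). Cldn1 is low in 5 of 6 hyperoxic libraries, and the ringed Hyperoxia 1 lies far below the other libraries for Cldn3 at 1.07 CPM.

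Promoter sequences are shown for Cldn1, the gene that passed the test, for F11r, the gene closest to the threshold among the others, and for Cldn3 with its neighbour on the chromosome, Cldn4. Each runs from 250 bases before the annotated start to 50 bases after it on the gene's own strand, read from RefSeq's GRCm38.p6 annotation. Capitals mark CACCTG or CAGGTG, the same E-box read on either strand, a motif that the repressors Snai1, Snai2 and Zeb1 can bind.
Cldn1, chr16:26371790-26372089, minus strand: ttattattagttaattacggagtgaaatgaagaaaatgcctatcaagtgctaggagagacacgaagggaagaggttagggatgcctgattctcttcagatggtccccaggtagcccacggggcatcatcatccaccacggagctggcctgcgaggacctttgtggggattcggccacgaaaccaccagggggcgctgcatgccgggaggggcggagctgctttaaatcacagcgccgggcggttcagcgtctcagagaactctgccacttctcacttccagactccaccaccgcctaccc
F11r, chr1:171437311-171437610, plus strand: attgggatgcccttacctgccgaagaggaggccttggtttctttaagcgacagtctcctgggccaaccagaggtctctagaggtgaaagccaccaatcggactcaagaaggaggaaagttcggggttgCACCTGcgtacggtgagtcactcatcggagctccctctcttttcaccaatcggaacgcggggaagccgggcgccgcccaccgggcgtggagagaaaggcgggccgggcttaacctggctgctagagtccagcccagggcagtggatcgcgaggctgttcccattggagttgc
Cldn3, chr5:134985964-134986263, plus strand: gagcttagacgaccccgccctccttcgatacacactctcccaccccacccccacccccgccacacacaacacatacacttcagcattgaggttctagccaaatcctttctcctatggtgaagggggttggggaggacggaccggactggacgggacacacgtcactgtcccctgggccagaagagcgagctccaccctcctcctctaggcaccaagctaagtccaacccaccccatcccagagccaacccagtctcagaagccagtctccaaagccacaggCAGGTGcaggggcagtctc
Cldn4, chr5:134946885-134947184, minus strand: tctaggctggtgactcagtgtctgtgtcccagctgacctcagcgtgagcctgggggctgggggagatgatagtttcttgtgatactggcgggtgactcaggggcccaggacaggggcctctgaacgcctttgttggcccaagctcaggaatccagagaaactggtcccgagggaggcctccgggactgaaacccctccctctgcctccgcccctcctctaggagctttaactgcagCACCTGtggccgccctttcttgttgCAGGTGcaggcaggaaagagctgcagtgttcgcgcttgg
These letters were absent from the Cldn1 window and present in the windows of F11r, Cldn3 and Cldn4. RefSeq promoters were matched for 8 of the 9 genes, all but Cdh1, as 11 windows because some genes have several starts. An E-box of this spelling stood in 6 of the 11 windows, which belong to 5 of the 8 genes and in part overlap, and 20.2% of all 32851 promoters of this length held one. The 11 windows had a share of G and C of 52% to 68%, against a median of 52.7% over all promoters. The shares with an E-box were not compared at equal G and C. A match describes the letters of the window and not a bound site. Of 5 tested repressors of Cdh1, 1 fell in the same libraries. Snai2 went from 19.9 ± 4.34 CPM (SD, n = 7) to 8.67 ± 1.35 CPM (n = 6), a log2 fold change of -1.20 (SE 0.20, adjusted p = 0.00052, edgeR), with no overlap between the groups, and 5.23% of all genes tested lay lower without overlap. Snai1 had a log2 fold change of 0.94 (SE 0.50, adjusted p = 0.194) and Zeb1 of -0.16 (SE 0.18, adjusted p = 0.574), neither past the threshold. Snai1 was at 0 CPM in Hyperoxia 1, and without that library it had 1.18 (adjusted p = 0.0085).

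Cldn1 lies on chromosome 16 (GRCm38, 26356642 to 26371841, minus strand). It measured between 2.45 and 8.504 CPM in normoxia, with a median of 5.57, and between 0.219 and 5.56 CPM in hyperoxia, with a median of 1.54. Of the 6 hyperoxic libraries, 5 lay below every normoxic one, and Hyperoxia 3, at 5.56 CPM, lay inside the normoxic range. The log2 fold change was -1.55 (SE 0.53, 95% interval -2.69 to -0.42, adjusted p = 0.0468, edgeR). An exact two-sided permutation test of the same libraries' log2 CPM over 1716 splits gave p = 0.0134 before any adjustment.

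The Cldn1 value rested on few reads, with 1 to 26 counts per library and 2 hyperoxic libraries at or under the floor. It was below 0 in all 24 alternative fits that tested it and passed the threshold in 8 of them. With 1 library left out it passed without Normoxia 4, Normoxia 5, Normoxia 7 or Hyperoxia 3, and did not pass in the other 9 fits, where the adjusted p reached 0.0951. Without Hyperoxia 1 the value was -1.42 (adjusted p = 0.0545). In the fit without Hyperoxia 3 the log2 fold change was -2.24 with an adjusted p of 0.0058. The genes with the most similar profile over the 13 libraries were Cd47 (Pearson r = 0.937) and Shh (r = 0.907), and the correlation of deviations from the group means was 0.896 and 0.818. Shh, a secreted morphogen, fell with a log2 fold change of -1.78 (adjusted p = 0.0074), whereas Cd47 had -0.32 (adjusted p = 0.122).

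Cldn18, on chromosome 9 (99689461 to 99717267, minus strand), had by far the most counts of the 9 genes, 51402 in all. It ran from 1106 to 1548 CPM in normoxia, with a median of 1426, and from 966 to 1682 CPM in hyperoxia, with a median of 1230. The hyperoxic range enclosed the normoxic one, with 2 hyperoxic libraries below it and Hyperoxia 1 above it. The log2 fold change of -0.12 (SE 0.15, adjusted p = 0.586) had a 95% interval from -0.44 to 0.19. Cldn18 has 3 annotated coding starts in GENCODE vM21 and is known to have a lung form and a stomach form that begin at different starts, which the counts per symbol merge.

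Cldn3, on chromosome 5 (134986214 to 134987472, plus strand), measured 30.7 ± 10.8 CPM in normoxia and 23.0 ± 14.1 CPM in hyperoxia. Normoxic libraries ran from 12.3 to 44.5 CPM with a median of 31.8, and hyperoxic ones from 1.07 to 43.1 CPM with a median of 21.1. The lowest value is that of Hyperoxia 1, which held 2 Cldn3 counts, and the other 5 hyperoxic libraries lay within the normoxic range. The log2 fold change was -0.40 (SE 0.43, adjusted p = 0.558), and -0.16 without Hyperoxia 1. Exons of Cldn3 overlap Wbscr25 on the opposite strand, and whether the counting used strand is not given in the sources used here.

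Cldn7, on chromosome 11 (69964779 to 69967885, plus strand), was as rare as Cldn1, at 3.27 to 5.05 CPM in normoxia with a median of 4.85 and 1.61 to 7.65 CPM in hyperoxia with a median of 3.42. In hyperoxia 3 libraries lay below all normoxic ones and 2 above them. Its log2 fold change was 0.02 (SE 0.33, 95% interval -0.69 to 0.73, adjusted p = 0.974), and the sign changed with the scaling. The SD was 17.4% of the mean in normoxia and 58.2% in hyperoxia.

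Ocln, on chromosome 13 (100496507 to 100552718, minus strand), measured 25.7 to 40.4 CPM in normoxia, with a median of 30.0, and 12.1 to 43.1 CPM in hyperoxia, with a median of 20.1. In hyperoxia 4 of 6 libraries were below every normoxic library, and Hyperoxia 3, at 43.1 CPM, was above them all. The log2 fold change was -0.44 (SE 0.28, 95% interval -1.04 to 0.15, adjusted p = 0.287), below 0 in all 25 alternative fits and past the threshold in 0 of them. Hyperoxia 3 was thus the highest hyperoxic library for both Cldn1 and Ocln.

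Tjp1, the scaffold on chromosome 7 (65296165 to 65527781, minus strand), ran from 110 to 195 CPM in normoxia with a median of 131, and from 69.2 to 139 CPM in hyperoxia with a median of 125. All hyperoxic libraries but Hyperoxia 2, the lowest, lay within the normoxic range. The log2 fold change was -0.23 (SE 0.18, adjusted p = 0.391).

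F11r, on chromosome 1 (171437535 to 171464603, plus strand), encodes an immunoglobulin-type adhesion molecule of tight junctions. It measured 296 to 466 CPM in normoxia with a median of 348, and 398 to 672 CPM in hyperoxia with a median of 508. All 6 hyperoxic libraries were above the normoxic median and 3 were above every normoxic library. The log2 fold change was 0.46 (SE 0.16, 95% interval 0.12 to 0.81), with an adjusted p of 0.0513 that just missed the threshold, and the exact two-sided permutation test gave p = 0.0181 unadjusted. DESeq2 gave 0.50 (adjusted p = 0.0303) and limma-voom 0.45 (adjusted p = 0.0476), and the value was above 0 in all 25 alternative fits. It also passed in edgeR with the letter set as a term, and without Normoxia 3, Hyperoxia 4 or Hyperoxia 6, each left out alone. In all, F11r was called in 6 of the 25 alternative fits.

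Cdh1, on chromosome 8 (106603351 to 106670246, plus strand), measured 80.3 to 139 CPM in normoxia with a median of 89.3, and 75.2 to 130 CPM in hyperoxia with a median of 96.0. The groups overlapped almost fully, and the log2 fold change was 0.01 (SE 0.16, adjusted p = 0.980). Its 95% interval ran from -0.33 to 0.35. Epcam, on chromosome 17 (87635979 to 87651129, plus strand), measured 55.9 to 68.4 CPM in normoxia with a median of 60.1, and 43.1 to 81.0 CPM in hyperoxia with a median of 67.4. Of the hyperoxic libraries 3 were above all normoxic ones and Hyperoxia 6 was below them, and the log2 fold change was 0.11 (SE 0.15, 95% interval -0.20 to 0.42, adjusted p = 0.644).

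**Figure D2:**
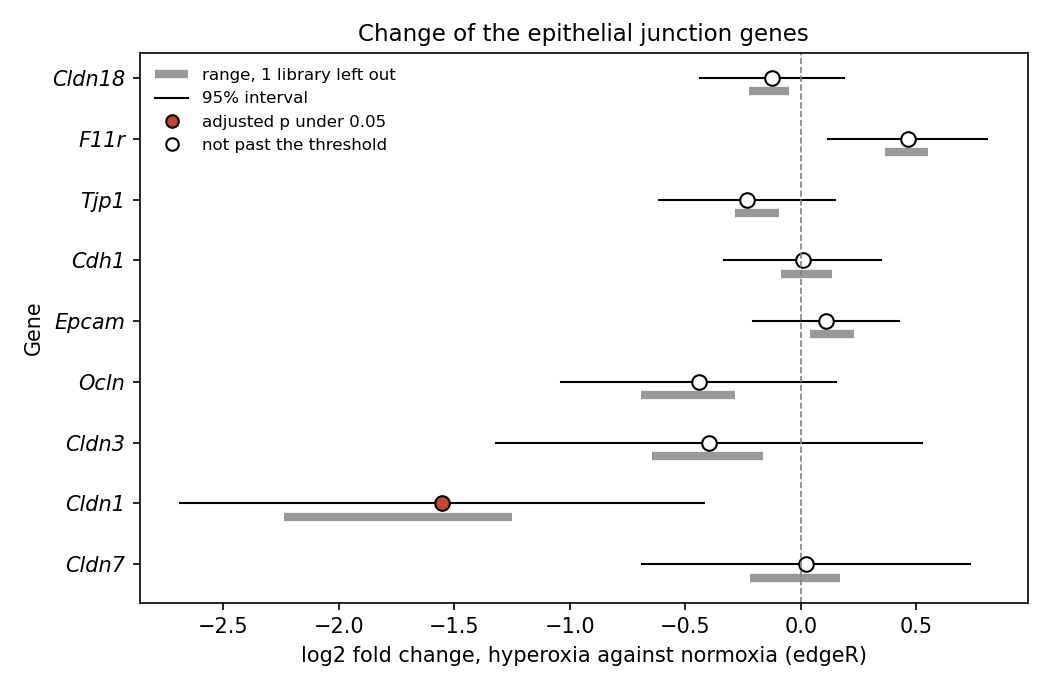
log2 fold change of each epithelial junction gene in hyperoxia against normoxia (x axis, edgeR) with its 95% interval as a black line and the range over the 13 fits with 1 library left out as a grey bar. The filled point, Cldn1 at -1.55, passed an adjusted p of 0.05, and the interval of F11r, 0.12 to 0.81, also excludes 0 before adjustment.

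The spread between libraries, as the ratio of SD to mean, was wider in hyperoxia for 7 of the 9 genes. It was 49.0% and 102% for Cldn1 in normoxia and hyperoxia, 35.1% and 61.3% for Cldn3, 19.5% and 53.3% for Ocln and 6.84% and 21.7% for Epcam. For Tjp1 it was 22.5% and 21.5%, and for Cdh1 21.2% and 18.2%. Single libraries weighed on these ratios. In hyperoxia the ratio was 37.3% for Cldn3 without Hyperoxia 1, close to its 35.1% in normoxia. It was 63.2% for Cldn1 without Hyperoxia 3 and 14.3% for Epcam without Hyperoxia 6. For Tjp1 it was 7.43% without Hyperoxia 2, and for Cdh1 10.8% without Hyperoxia 1. These are descriptions, and no test of the spread was made.

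The effect was also computed within each set of library letters. For Cldn1 the log2 fold change was -1.10 in libraries B to M and -1.92 in O to S, and for F11r 0.72 and 0.29, so that each kept its direction. Ocln had -0.39 and -0.53, Cldn18 -0.01 and -0.24, Tjp1 -0.18 and -0.45, and Epcam 0.20 and 0.08. Cldn3 (-0.69 and 0.49), Cldn7 (-0.60 and 0.56) and Cdh1 (0.28 and -0.38) had opposite signs in the 2 sets. The difference between the sets was tested by an interaction term in edgeR, which passed for 0 of 12496 genes, or 0% of them, and its adjusted p was at least 0.539 for each of the 9 genes. At an unadjusted p under 0.05 it held 1158 genes and 0 of the 9. Within a set, 1 value passed the threshold, that of Tjp1 in O to S, with an adjusted p of 0.0479.

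Whole lung mixes many cell types, so that fewer epithelial cells and less RNA per cell cannot be told apart. Each gene was therefore also given as a log2 ratio to Epcam in the same library, with 1 CPM added to both. The mean ratio of Cldn1 went from -3.37 ± 0.67 (SD, n = 7) in normoxia to -4.72 ± 0.58 (n = 6) in hyperoxia, a difference of -1.35, with 5 of 6 hyperoxic libraries below all normoxic ones. The difference was -0.64 for Ocln, with 4 of 6 libraries below, and 0.37 for F11r, with 3 of 6 above. It was -0.83 for Cldn3, which became -0.25 without Hyperoxia 1. Cldn7, Cldn18, Tjp1 and Cdh1 differed by -0.23, -0.22, -0.32 and -0.06. The groups did not fully separate for any of the 8 ratios, whereas this ratio separated 6.65% of all genes, 4% of them lower and 2.64% higher.

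The 9 genes did not vary as 1 block from library to library. Over the 36 pairs, the Pearson r of deviations from the group means in 13 libraries ran from -0.78 to 0.74 with a median of -0.07. The highest was between Tjp1 and Cdh1 (0.74), followed by Cldn1 and Epcam (0.63) and Cldn3 and Cldn7 (0.59). For Cldn1 and Epcam the r of log2 CPM was 0.330 over all 13 libraries and 0.280 without Hyperoxia 1. Without Hyperoxia 1 the r of the log2 CPM of Tjp1 and Cdh1 was 0.797, against 0.679 over all 13 libraries, and that of Cldn3 and Cldn7 was 0.132, against 0.610. The lowest was between Cldn3 and Cdh1 (-0.78), whose log2 CPM had an r of -0.787 over the 12 libraries without Hyperoxia 1. Cldn3 and Cldn18 had an r of log2 CPM of -0.544 over all 13 libraries and -0.256 without Hyperoxia 1. All points share their libraries and depth, and the r values are descriptions without a test.

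**Figure D3:**
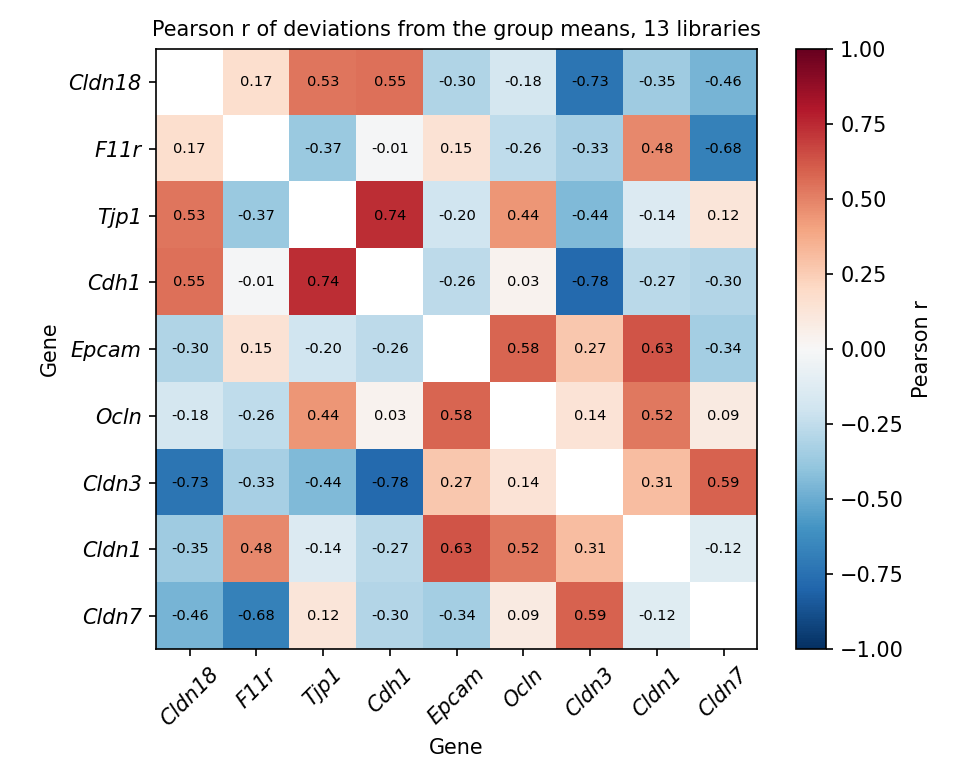
Pearson r between epithelial junction genes, from log2 CPM minus the mean of the group, over 13 libraries, with the color scale from -1 to 1. Tjp1 and Cdh1 vary together (0.74), and Cldn3 varies against Cdh1 (-0.78).

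Of the other claudins, 23 of 25 were in the table, 8 of those had no count in any library and 6 passed the filter. Cldn10 and Cldn15 fell and 4 did not pass, with a median log2 fold change of -0.36. Cldn10, known as a channel-forming claudin and found in club cells of the airway, was at 49.96 to 75.5 CPM in normoxia and 18.1 to 34.7 CPM in hyperoxia. The groups did not overlap, and the log2 fold change was -1.29 (SE 0.18, adjusted p = 0.00011), past the threshold in all 25 alternative fits. Cldn15, also a channel former, was at 3.49 to 9.33 CPM against 0.347 to 3.13 CPM, without overlap and with a log2 fold change of -1.54 (SE 0.38, adjusted p = 0.0089). Cldn5, the claudin of endothelium, was at 30.7 to 87.7 CPM in normoxia and from 5.36 CPM in Hyperoxia 1 to 136 CPM in hyperoxia. Its log2 fold change was 0.46 (SE 0.43, adjusted p = 0.482), and without Hyperoxia 1 it was 0.70 (adjusted p = 0.0473).

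Cldn4, a claudin of barrier epithelia, lies 39279 bases from Cldn3 on chromosome 5 with 0 annotated genes between them, and was too rare to pass the filter. The normoxic libraries held 0 to 3 counts each and 10 in all, whereas 5 of the 6 hyperoxic libraries held 10, 16, 55, 11 and 30 and Hyperoxia 1 held 0. Scaled by library size the hyperoxic sum was 13.03 times the normoxic one, with a 95% interval of 6.85 to 27.8 that covers counting error only, and 8.91 times without Hyperoxia 4, the highest library. In a fit without the filter, edgeR gave Cldn4 an adjusted p of 0.0020 over 19718 genes, and 7.2e-05 without Hyperoxia 1. Its neighbour Cldn3 did not pass in that fit (adjusted p = 0.571).

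**Figure D4:**
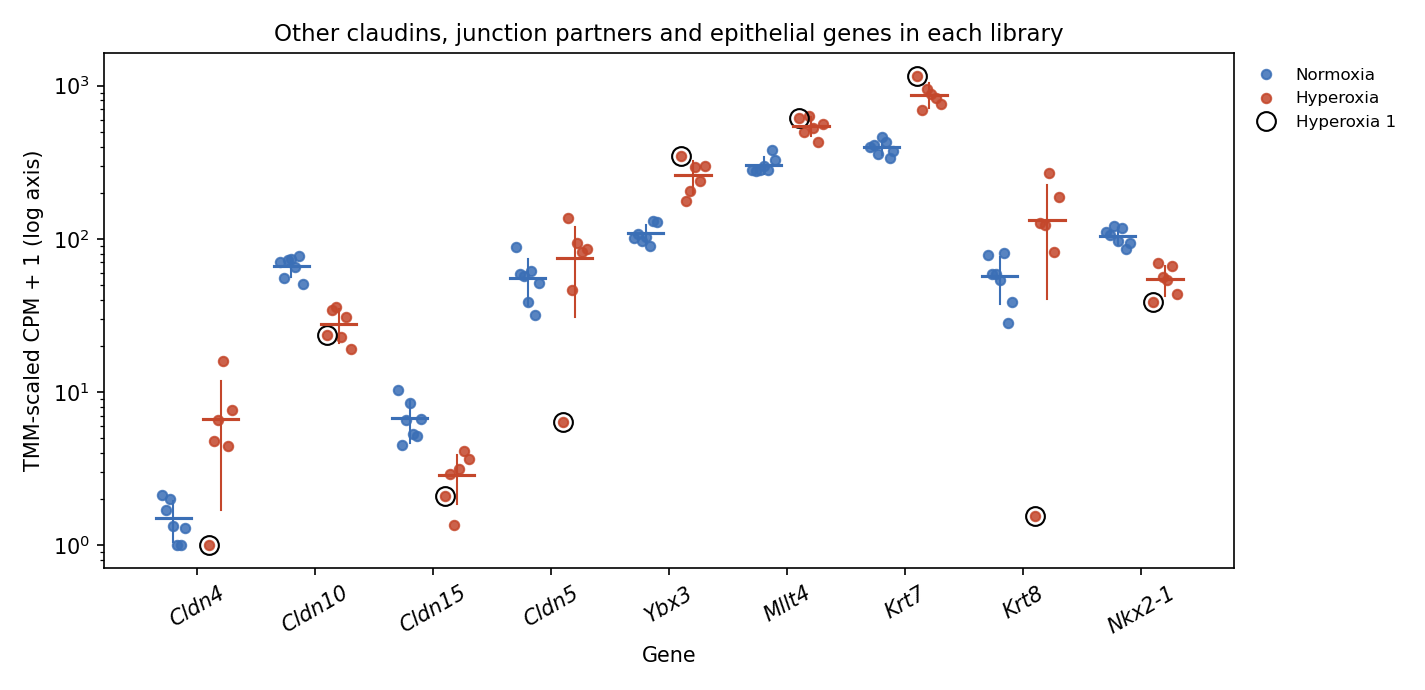
TMM-scaled CPM plus 1 (log axis) of other claudins, junction partners and epithelial genes in each of the 13 libraries, with mean and SD per group. Cldn10, Cldn15 and Nkx2-1 are lower and Ybx3, Mllt4 and Krt7 higher in every hyperoxic than in every normoxic library, and Cldn4 is above the normoxic libraries in 5 of 6.

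Of 31 other tight junction genes, 29 were tested, 4 rose and 0 fell, with a median of -0.01, and at an unadjusted p under 0.05 edgeR held 5 higher and 2 lower. DESeq2 called 5 higher and 0 lower, and limma-voom 3 and 0. Ybx3, the Y-box factor that binds Tjp1 at junctions, measured 88.8 to 130 CPM in normoxia and 174 to 345 CPM in hyperoxia. It was higher in every hyperoxic library, as were 5.6% of all genes tested, with a log2 fold change of 1.27 (SE 0.17, adjusted p = 6.8e-05), and passed in all 25 alternative fits. Ildr2, a protein of tricellular contacts, and Pard6b, a polarity protein, passed at adjusted p of 0.0451 and 0.0368 with log2 fold changes of 0.72 and 0.58, and were called in 5 and 13 of 25 alternative fits. Without Hyperoxia 1 the list had 5 higher and 0 lower, and Ildr2 did not pass there (0.55, adjusted p = 0.0763). Marveld2 (tricellulin) did not pass, at -0.23 (adjusted p = 0.524).

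Of 16 other adherens junction genes, 15 were tested, 1 rose and 2 fell, with a median of 0.07. Mllt4, an older symbol of afadin, the actin linker of nectins, measured 275 to 377 CPM in normoxia and 428 to 631 CPM in hyperoxia without overlap, with a log2 fold change of 0.84 (SE 0.13, adjusted p = 0.00029). The nectins Nectin3 and Nectin1 fell, with log2 fold changes of -0.50 (SE 0.14, adjusted p = 0.0173) and -1.34 (SE 0.42, adjusted p = 0.0309). They were called in 19 of 25 and 16 of 24 alternative fits, and without Hyperoxia 6 neither passed, at adjusted p of 0.0683 and 0.0536. Nectin3 also lost its call without Hyperoxia 2 (adjusted p = 0.0713) or Normoxia 6 (0.0561), and Nectin1 without Normoxia 1 (0.0717), Normoxia 2 (0.0588) or Normoxia 3 (0.0642). Among the catenins of the Cdh1 complex, Ctnnd1 was below the normoxic libraries in every hyperoxic library, at -0.73 (adjusted p = 0.0925). Without Hyperoxia 1, where Ctnnd1 was 41.3 CPM, the value was -0.52 (adjusted p = 0.0062). Ctnnb1 had -0.59 (adjusted p = 0.366), with 8.04 CPM in Hyperoxia 1, Jup -0.45 (adjusted p = 0.0766) and Ctnna1 0.27 (adjusted p = 0.246).

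Of 12 desmosome genes 6 were tested and 0 passed, with log2 fold changes of 0.28 for Dsp (adjusted p = 0.425) and 0.71 for Perp (adjusted p = 0.181). At an unadjusted p under 0.05 edgeR also held 0 of them, and DESeq2 and limma-voom called 0. Without Hyperoxia 1, however, 3 of the 6 passed, namely Perp (0.93, adjusted p = 0.0124) and Ppl (0.82, adjusted p = 0.0230) as higher and Pkp4 (-0.39, adjusted p = 0.0353) as lower. Of 12 gap junction genes 6 were tested, of which Gja1 rose, at 0.76 (SE 0.19, adjusted p = 0.0106), and Gja4, an arterial connexin, fell, at -2.12 (SE 0.47, adjusted p = 0.0040). Over the 5 lists of other junction genes together, 62 genes were tested, 6 rose and 5 fell, with a median of 0.03. Without Hyperoxia 1 the counts were 10 and 7, and the share of all genes tested that passed was 28.7%, against 22.6% with it. On the authors' log CPM scale, without TMM, limma called 4 higher and 7 lower.

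**Figure D5:**
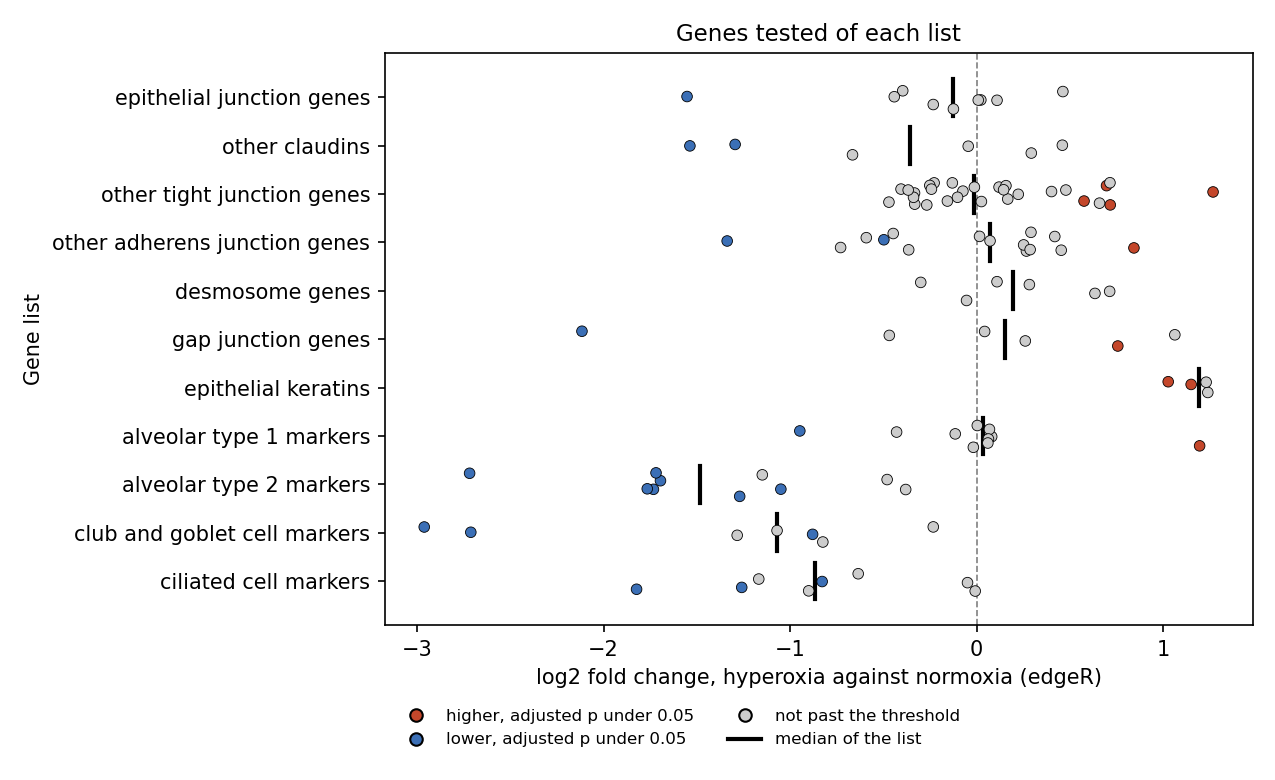
log2 fold change in hyperoxia against normoxia (x axis, edgeR) of the tested genes of each list, with genes past an adjusted p of 0.05 in color and the median of the list as a bar. The junction lists scatter around 0, with medians from -0.36 to 0.20, while the alveolar type 2 list has a median of -1.48 and the keratins of 1.19.

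Keratins of simple epithelia, to which desmosomes attach, had log2 fold changes above 0 for all 4 tested, of which Krt7 and Krt18 rose. Krt7 measured 337 to 457 CPM in normoxia and 688 to 1147 CPM in hyperoxia without overlap, a log2 fold change of 1.15 (SE 0.14, adjusted p = 3.5e-05), and Krt18 had 1.03 (SE 0.30, adjusted p = 0.0199). Krt8 had 1.24 (adjusted p = 0.131) with 0.536 CPM in Hyperoxia 1, and 1.501 (adjusted p = 0.00086) without that library. Krt19 had 1.23 (adjusted p = 0.0627) with 12.3 CPM in Hyperoxia 1, and 1.48 (adjusted p = 0.00029) without it, so that all 4 keratins passed in that fit. Without Hyperoxia 4, Krt18 had 0.80 (adjusted p = 0.0597). Of 11 tested regulators of epithelial genes 2 fell, namely Nkx2-1, the lung lineage factor, from 103 ± 12.9 to 53.6 ± 12.2 CPM without overlap (log2 fold change -0.95, SE 0.16, adjusted p = 0.00052), and Elf5 (-0.97, SE 0.28, adjusted p = 0.0217, and -0.80 with adjusted p = 0.0567 without Hyperoxia 6). Grhl2 and Elf3 did not pass, at -0.57 (adjusted p = 0.136) and -0.31 (adjusted p = 0.611).

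Markers of the cell types that carry these junctions moved unequally in the same libraries. Of 10 alveolar type 2 markers 7 fell, with Sftpc at -2.72 (SE 0.60, adjusted p = 0.0042) and Sftpb at -0.38 (adjusted p = 0.622), and their summed level was 13335 to 24518 CPM in normoxia and 3568 to 7758 CPM in hyperoxia. Of 10 alveolar type 1 markers 1 rose (Akap5, 1.20, adjusted p = 1.8e-05) and 1 fell (Rtkn2, -0.95, adjusted p = 0.0246, called in 19 of 25 alternative fits), with Ager at -0.11 (adjusted p = 0.765) and Hopx at 0.08 (adjusted p = 0.851), and the sum was 3682 to 4367 CPM against 4590 to 6068 CPM. Without Akap5 this sum was 2495 to 3001 CPM in normoxia and 1656 to 3277 CPM in hyperoxia, and the groups overlapped. Of 7 tested club and goblet cell markers 3 fell, Scgb1a1 with a log2 fold change of -2.96 (adjusted p = 0.0019), with a sum of 14588 to 53187 CPM against 192 to 10224 CPM. Of 8 ciliated cell markers 3 fell, with a sum of 288 to 546.5 CPM against 168 to 252 CPM. No marker of these 4 lists was at 0 in every library, and their part in the values of the junction genes was not tested.

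Among the other cell types, 4 of 10 endothelial markers fell, with log2 fold changes of Tek (-0.94), Tie1 (-0.70), Erg (-0.77) and Vwf (-1.18). Vwf did not pass without Hyperoxia 5 or Normoxia 1, at adjusted p of 0.0535 and 0.0531. The other 6 did not pass, among them Pecam1 (-0.79, adjusted p = 0.198) and Cdh5 (0.18, adjusted p = 0.307), and 3 of the 10 were above 0. This list had a median of -0.54 and summed levels of 2975 to 5210 CPM in normoxia and 1407 to 5009 CPM in hyperoxia. All 5 tested lymphocyte markers fell, as did 2 of 8 macrophage and neutrophil markers, 1 of 4 mesothelial markers, 1 of 4 erythroid markers and the 1 basal cell marker tested, and 1 of 5 fibroblast markers rose. The summed markers of alveolar type 2, club and goblet, ciliated and basal cells each lay below all normoxic libraries in 6 of 6 hyperoxic libraries. So did those of lymphocytes and of macrophages and neutrophils. A sum weights genes by their counts and need not show a fall across its list. Of the macrophage and neutrophil markers, with a median of -0.24, Lyz2 (-2.27) and Siglecf (-1.33) fell. Adgre1 (-0.11, adjusted p = 0.882), Cd68 (-0.004, adjusted p = 0.997) and Marco (0.98, adjusted p = 0.183) did not pass. The summed level of the 9 junction genes, mostly Cldn18, was 1755 to 2350 CPM in normoxia and 1891 to 2680 CPM in hyperoxia.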

How the data were processed

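RNA of perfused mouse lungs was measured by Quant-seq in 13 libraries, 7 in normoxia and 6 in hyperoxia, as the sample titles group them. The authors deposited whole-number counts per gene symbol, unfiltered, and log10 of CPM plus 1, which equals the counts divided by the library total. The submitters' processing notes name kallisto, limma 3.54.2 and mm10, and the annotation behind the symbols is not given in the sources used here. From the counts, log2 fold changes were computed with edgeR 4.0.16 (glmQLFit and glmQLFTest, R 4.3.3). TMM set the scale and filterByExpr kept 12496 genes, with Benjamini-Hochberg adjustment over all of them and a prior count of 2 for log2 CPM. Single genes were also compared by an exact permutation test. Alternatives were DESeq2 1.42.0, limma-voom and limma 3.58.1 on the authors' log10 scale turned into log2, other scalings and filters, a block for replicate number, a term for the letter set, each letter set alone, and each library left out. One fit, without filter and without Hyperoxia 1, was added after seeing the data. The fit was also run on simulated counts, with changes placed on genes of moderate level. Its outcome is not given here, and it did not cover changes of rare genes such as Cldn1.

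The 9 genes and all lists were chosen with earlier results of these data known. Named were the 9 genes, the genes past the threshold in each list (up to 4 with the smallest adjusted p, or 6 for claudins and tight junctions), set defining genes of each list, and the 2 genes most similar to each called one. Of the cell type lists, however, only some of the genes past the threshold and of the defining genes were named. Ctnnd1, Jup, Ppl, Pkp4, Krt19, Akap5, Rtkn2 and Marco, as well as single libraries, were named after their values were seen. Some list symbols were matched by an older name. Coordinates are GRCm38 from GENCODE vM21 and promoters from RefSeq GRCm38.p6. The mm10 of the notes is the same assembly. A planned comparison of protein sequences was not run, and the values of 1 gene counted in a list are not reported here. Total counts were 1607111 to 4540288, 0 columns were unmapped, the floor and the interval of the Cldn4 ratio cover counting error only, while intervals of log2 fold changes include the spread between libraries, and no 2 libraries of a group agreed within sampling noise in 36 pairs (chi-square per gene at least 3.90).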

Additional observations from a re-analysis of the deposited data

Results flagged for a closer look

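In 18 groups of libraries, 9 genes in each condition, the highest or lowest library was compared with its nearest neighbour by Dixon's criterion, of which chance flags about 1 in 20, or 0.9 here. There were 2 such libraries. Cldn3 in Hyperoxia 1 was far below the other hyperoxic libraries, at 1.07 CPM against 19.4 CPM in the next lowest. Tjp1 in Hyperoxia 2 was far below the others at 69.2 CPM, the next lowest being 115 CPM. Without Hyperoxia 1 the log2 fold change of Cldn3 was -0.16 (adjusted p = 0.705), and without Hyperoxia 2 that of Tjp1 was -0.09 (adjusted p = 0.725), so that neither gene passed the threshold with or without the library.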

How the results depend on the processing

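Counts were few for Cldn1, Cldn3 and Cldn7 in some hyperoxic libraries, with 3 counts or fewer in 2, 1 and 1 of them. For Cldn3 this was Hyperoxia 1, with 2 counts at a total of 2029006. Normoxia 5, with a total of 1607111, held 60 Cldn3 counts. Cldn18, Ocln and Epcam kept their direction and their side of the threshold in every alternative. With 1 library left out, the difference in the log2 ratio to Epcam ran from -1.09 to -0.25 for Cldn3, -0.52 to -0.08 for Cldn7, -0.35 to -0.08 for Cldn18, -0.47 to -0.16 for Tjp1, 0.25 to 0.46 for F11r and -0.19 to 0.036 for Cdh1. The median over all genes was -0.16 when limma ran on deposited log CPM, -0.10 with library size alone and -0.03 in the reported fit, and the share of calls that were higher was 38.8%, 42.9% and 52.3%. The causes of the changes given here were not tested.

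The count of the 9 genes higher was 1 (F11r) with DESeq2 (0.50), limma-voom (0.45) and the letter set as a term (0.52, adjusted p = 0.0176), and 0 to 1 with 1 library left out, where F11r ran from 0.37 to 0.55 and passed without Normoxia 3, Hyperoxia 4 or Hyperoxia 6. The count lower was 0 in the following fits. Cldn1 had -1.53 (adjusted p = 0.0509) with DESeq2 size factors, -1.51 (0.0702) without filter, -1.43 (0.0648) with the letter set as a term, -1.10 (0.336) in B to M and -1.39 (0.0743) without filter and Hyperoxia 1, and it was not tested at 10 counts in every library. In O to S it had -1.92 (0.0780) while Tjp1 passed at -0.45. With 1 library left out the count lower was 0 to 1 and Cldn1 ran from -2.24 (without Hyperoxia 3) to -1.25 (without Hyperoxia 6), and the call was lost in 9 of 13 and kept without Normoxia 4, 5 or 7 or Hyperoxia 3.

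Signs changed for genes that did not pass. Cldn7 had -0.031 with limma-voom, -0.21 with limma on log CPM, -0.034 with library size alone, -0.12 with the letter term, -0.60 in B to M and -0.22 to 0.17 with 1 library left out. Cdh1 had -0.057 with limma on log CPM, -0.074 with library size alone, -0.062 at 10 counts in every library, -0.020 with the letter term, -0.38 in O to S, -0.064 without filter and Hyperoxia 1, and -0.085 to 0.14 with 1 library left out. Cldn3 had 0.49 in O to S.

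The other junction genes gave 3 higher and 3 lower in B to M, 9 and 3 in O to S, 11 and 7 without filter and Hyperoxia 1, and 4 to 10 higher and 3 to 7 lower with 1 library left out, the highest both without Hyperoxia 1.

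With the replicate block, 0 of the 9 genes passed, Cldn1 had -1.78 (adjusted p = 0.0892), Cldn7 -0.12, and 3 other junction genes were higher and 1 lower, while 10.8% of all genes tested passed. No label says whether the numbers pair the libraries. The r of same-numbered libraries' deviations ran from -0.33 to 0.27, which cannot settle this, as differently numbered libraries were not compared.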

Other observations

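Among the claudins too rare for the filter, Cldn22 held up to 9 counts in a normoxic library and at most 1 in a hyperoxic one, and in the fit without filter edgeR gave an adjusted p of 0.0243. Cldn8, Cldn11 and Cldn23, also rare, did not pass in that fit, with adjusted p of 0.153, 0.147 and 0.105. These 4 genes were named after their values were seen.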
